A study of Mus musculus with 6 samples.

Results

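The genes described here are 32 genes of the fibrillar collagens and of collagen processing, chosen by symbol from the 18697 genes of the deposited count table. They comprise 14 collagen chains, 6 cross-linking enzymes, 4 genes of chain hydroxylation and folding, 4 genes of propeptide processing and 4 collagen-binding matrix proteins. All 32 were found in the table, and 30 passed the filter on low counts. Col8a1 and P4ha3 did not pass and were left untested. The comparison was between prostates of mice treated with VUF11207, an agonist of the atypical chemokine receptor CXCR7, and prostates of mice given the vehicle DMSO. VUF11207 was given intraperitoneally at 5 mg per kg per day for 14 days, and DMSO in an equal amount by the same route. Both groups carried experimental autoimmune prostatitis, a model in which immunity against prostate antigens inflames the gland, and prostates without prostatitis were not analysed here. Each group had 3 bulk RNA libraries. In the DMSO group these were replicates 2 and 3 and 1 library whose replicate number the files do not give, called the unnumbered DMSO library. Strain and age are not given in the labels, and neither is the mouse behind each library, so the p-values speak only of how far these libraries spread, which may be technical.

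Fibrillar collagen is made as procollagen. Prolyl 4-hydroxylases hydroxylate its chains in the endoplasmic reticulum, which makes the triple helix stable, and the chaperone HSP47 (Serpinh1) holds the folded helix. Outside the cell, proteases remove the propeptides, fibrils assemble, and lysyl oxidases join them by covalent cross-links whose type depends on lysyl hydroxylation. In fibrosis, fibroblasts and myofibroblasts deposit such cross-linked fibrils in excess, and in the prostate they lie in the stroma between the glands, together with smooth muscle.

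Total counts were between 23915765 and 29311438 in the VUF11207 libraries and between 20308018 and 33368058 in the DMSO libraries. Levels are given in CPM, counts put on a per-library scale with a TMM correction for libraries dominated by a few genes. A list of 7 seminal vesicle secretory genes took 26.2%, 2.55% and 3.21% of the counts in VUF11207 replicates 1, 2 and 3, against 0.624%, 60.4% and 14.4% in the unnumbered DMSO library and DMSO replicates 2 and 3. The listed genes did not all rank the libraries alike. Svs5 was at 32762 CPM and Svs1 at 199 CPM in DMSO replicate 3, against 11981 and 1128 CPM in VUF11207 replicate 3. Summed skeletal muscle markers were at 5302 CPM in VUF11207 replicate 1 and 5098 CPM in DMSO replicate 3, and at 427 to 1181 CPM in the other 4 libraries. In the other 4 most of the sum was the marker Acta1, at 306 to 1126 CPM, so the sum does not rank their muscle content. By the average of centred log2 CPM used for gene groups below, VUF11207 replicate 3 was the highest of the 4, at 0.51. VUF11207 replicate 2, the unnumbered DMSO library and DMSO replicate 2 were at -2.83, -4.20 and -1.76. Pbsn (probasin), a defining secretory gene of the mouse prostate, was at 623 to 6739 CPM with VUF11207 and at 681 to 17695 CPM with DMSO. Fits were also made without the libraries richest in seminal vesicle counts or in skeletal muscle. Beyond these fits, the part of these tissue differences in the collagen values was not tested.

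None of the 30 tested collagen and collagen-processing genes passed the test for a difference between VUF11207 and DMSO. Of the 30 tested genes, 23 had a positive log2 fold change and 7 a negative one, with a median of 0.21. Over all 13753 genes tested, 44.7% were positive and the median was -0.04. In edgeR's quasi-likelihood test 0 of the 30 passed a Benjamini-Hochberg adjusted p of 0.05, and 0% of all genes passed. At an unadjusted p under 0.05 edgeR had 0 of the 30, against 1.43% of all genes. Limma voom had 0 of the 30, against 181 of all 13753 genes. DESeq2 had 1 of the 30, Plod2, against 310 of the 13636 genes to which it gave a p. The adjusted p of Plod2 in DESeq2 was 0.9999. At an adjusted p of 0.05 DESeq2 had 0 of the 30, against 0.0293% of the genes to which it gave an unadjusted p. For 0 of the 30 genes did the VUF11207 and DMSO libraries separate without overlap, against 5.57% of all genes. The count of positive genes rested on single libraries, being 10 of 30 without VUF11207 replicate 2, with a median of -0.14, and 28 of 30 without the unnumbered DMSO library, with a median of 0.63. It was 20 of 31 without the 2 libraries richest in seminal vesicle counts and 24 of 31 without the 2 richest in skeletal muscle, where 1 more gene passed the filter. Scaling by library totals moved the median of all genes to 0.14 and that of the 30 genes to 0.34. The 95% intervals were wide. They included a doubling for 25 of the 30 genes and a halving for 11, and lay wholly within 2-fold in both directions for 3.

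**Figure D1:**
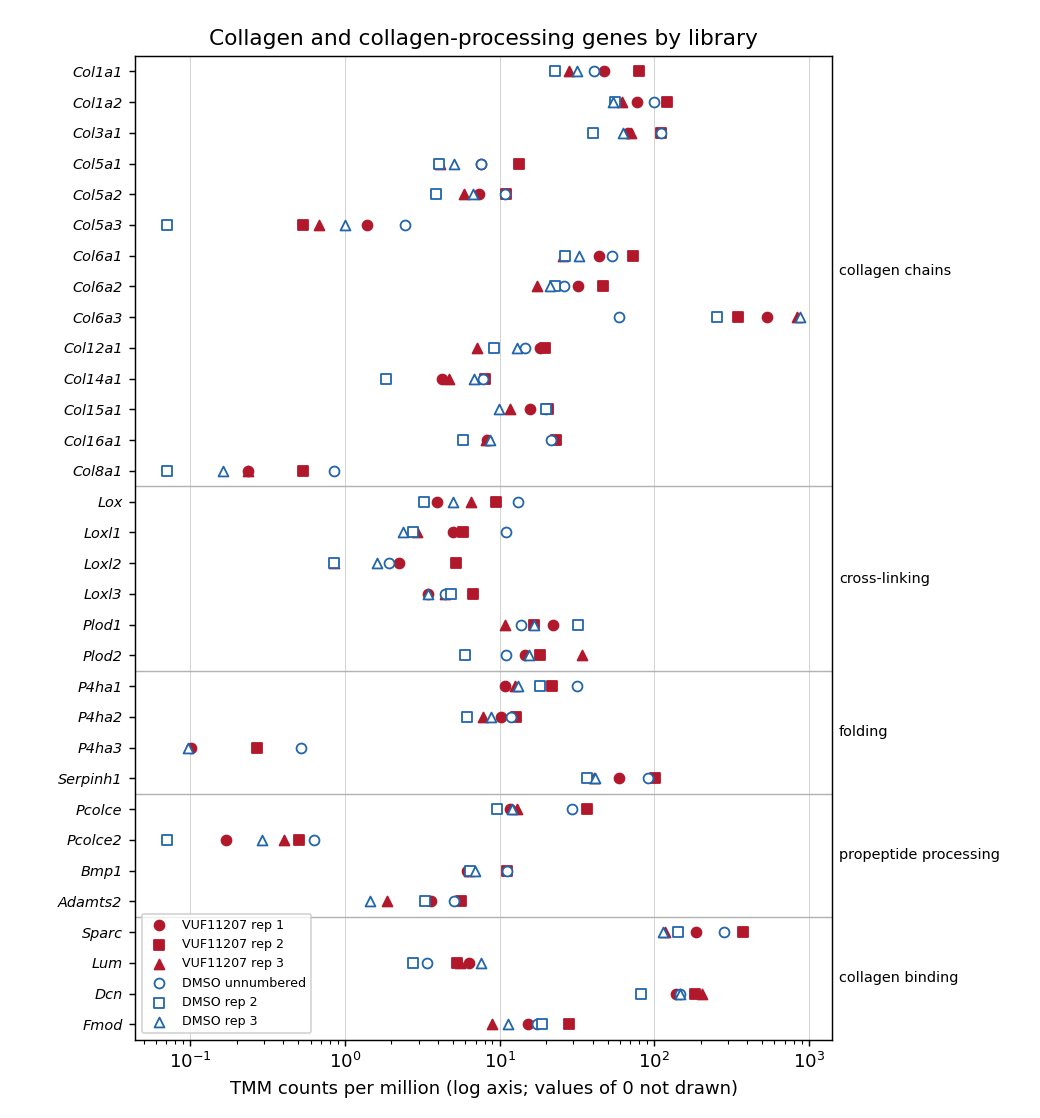
TMM-scaled CPM of each of the 32 genes (rows, by role) in each library (log axis); filled red symbols are VUF11207 libraries and open blue symbols DMSO libraries. Red and blue symbols interleave in every row, and Col6a3 spans the widest range among the abundant chains, from 58.9 to 883 CPM.

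Many of the 30 genes had their highest values in the same 2 libraries, 1 from each group. VUF11207 replicate 2 was the highest library for 19 of the 30 genes and among the 2 highest for 26. The unnumbered DMSO library was the highest for 6 and among the 2 highest for 19. For 18 of the 30 genes these libraries, 1 from each group, held the 2 highest values. The share of all tested genes with these libraries on top was not counted. Over all tested genes, the deviations of these libraries from their group means correlated at 0.68, so the pattern is not shown to be particular to the collagen genes. DMSO replicate 2, the library with most seminal vesicle counts, was the lowest for 15 genes.

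Type I collagen, the main fibrillar collagen of stroma, is built from the chains of Col1a1 and Col1a2. Col1a1 was at 47.6, 79.7 and 28.2 CPM in VUF11207 replicates 1, 2 and 3, against 40.7, 22.7 and 31.9 CPM in the unnumbered DMSO library and DMSO replicates 2 and 3. VUF11207 replicates 1 and 2 lay above all DMSO libraries, but VUF11207 replicate 3 lay below 2 of them. The log2 fold change of Col1a1 was 0.71, with a 95% interval from -0.27 to 1.68, and it was 0.26 without VUF11207 replicate 2. Its partner Col1a2 was at 77.5, 122 and 61.5 CPM with VUF11207 and at 99.2, 55.5 and 54.6 CPM with DMSO. The groups overlapped here too, with the unnumbered DMSO library above 2 of 3 VUF11207 libraries. The log2 fold change of Col1a2 was 0.32 (95% interval -0.53 to 1.16) and -0.0017 without VUF11207 replicate 2. In mm10, by the GENCODE annotation, Col1a1 lies on chromosome 11 from 94936224 to 94953042 and Col1a2 on chromosome 6 from 4504814 to 4541544.

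Type III collagen, a homotrimer of Col3a1 chains in distensible tissues, did not separate the groups either. Col3a1 was at 67.9, 112 and 70.6 CPM in the VUF11207 libraries and at 111, 40.4 and 62.5 CPM in the DMSO libraries. Its value in the unnumbered DMSO library equalled that of VUF11207 replicate 2 to within 1 CPM. The log2 fold change was 0.22 (95% interval -0.74 to 1.18), and it was negative without VUF11207 replicate 2 or without DMSO replicate 2 (at lowest -0.0486).

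Type V collagen starts fibrils and limits their width. Col5a1 was at 7.57, 13.3 and 4.13 CPM with VUF11207 and at 7.62, 4.09 and 5.04 CPM with DMSO, with a log2 fold change of 0.57 (95% interval -0.58 to 1.73). VUF11207 replicates 1 and 3 fell within the DMSO range and only VUF11207 replicate 2 exceeded it. Col5a2, which lies next to Col3a1 on chromosome 1 with 24.6 kb between the genes, was at 7.40, 10.9 and 5.92 CPM with VUF11207 and at 10.8, 3.87 and 6.72 CPM with DMSO. Col5a3, the least abundant tested chain, was at 1.39, 0.537 and 0.676 CPM with VUF11207 and at 2.44, 0.0705 and 1.002 CPM with DMSO. Its values spread 34.7-fold over the 6 libraries, and its log2 fold change of -0.45 had an interval from -2.92 to 2.01.

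A ratio of chains within a library does not depend on how libraries are scaled. The count ratio of Col1a2 to Col1a1 was 1.63, 1.53 and 2.18 in VUF11207 replicates 1, 2 and 3, against 2.44, 2.45 and 1.71 in the unnumbered DMSO library and DMSO replicates 2 and 3. It averaged 1.78 ± 0.352 with VUF11207 and 2.20 ± 0.423 with DMSO (SD, n = 3 each), and the ranges overlapped because VUF11207 replicate 3 lay above DMSO replicate 3. The ratio of Col3a1 to Col1a1 was 1.43, 1.40 and 2.504 with VUF11207 and 2.74, 1.78 and 1.96 with DMSO. The ratio of Col5a2 to Col1a1 was 0.156, 0.137 and 0.210 with VUF11207 and 0.267, 0.171 and 0.211 with DMSO. In both of these ratios VUF11207 replicates 1 and 2 were below every DMSO library and VUF11207 replicate 3 was not. These ratios are of counts per gene and are given as a description, with no test.

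**Figure D2:**
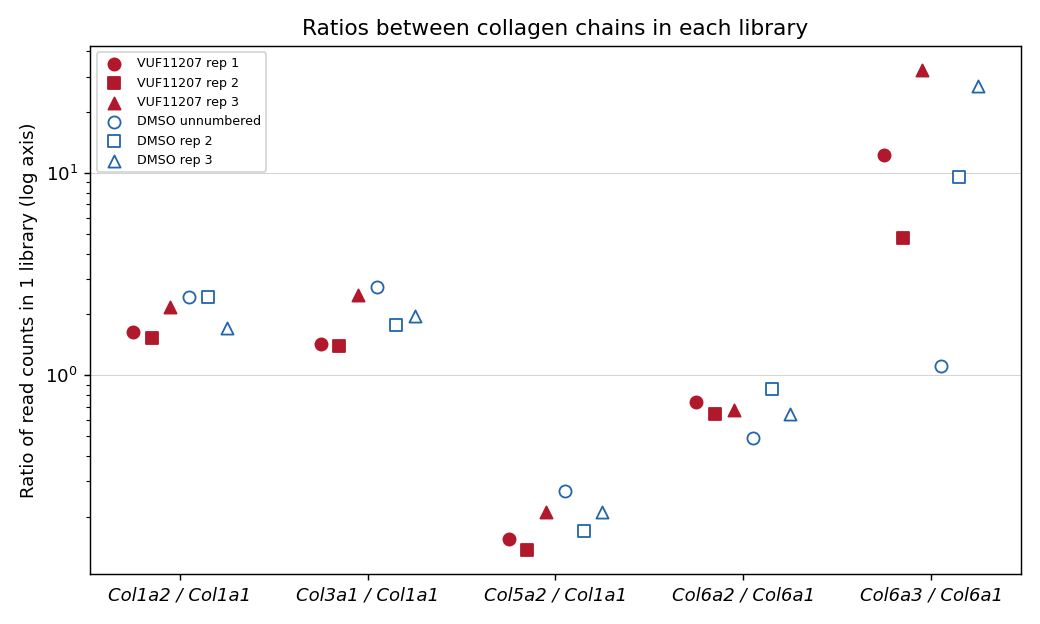
Ratio of read counts of 2 collagen genes within each library (log axis); filled red symbols are VUF11207 libraries and open blue symbols DMSO libraries. The 4 ratios without Col6a3 vary at most 1.95-fold across libraries, while that of Col6a3 to Col6a1 runs from 1.11 to 32.4.

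Type VI collagen forms beaded microfilaments around cells and is assembled from the chains of Col6a1, Col6a2 and, most widely, Col6a3. Col6a3 did not vary with its partners. Col6a1 was at 44.0, 72.5 and 25.8 CPM with VUF11207 and at 53.3, 26.7 and 32.9 CPM with DMSO, and Col6a2 at 32.4, 46.6 and 17.4 CPM with VUF11207 and at 26.1, 22.8 and 21.3 CPM with DMSO. Both peaked in VUF11207 replicate 2 and were lowest in VUF11207 replicate 3. Col6a3 was at 540, 348 and 836 CPM in VUF11207 replicates 1, 2 and 3, against 58.9, 255 and 883 CPM in the unnumbered DMSO library and DMSO replicates 2 and 3. It was thus high in the replicates 3 of both groups, and lowest in a library where Col6a1 was second highest. The count ratio of Col6a3 to Col6a1 was 12.3, 4.79 and 32.4 with VUF11207 and 1.11, 9.55 and 26.8 with DMSO, a 29.3-fold spread, while that of Col6a2 to Col6a1 spread 1.74-fold.

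Col6a3 spread more widely in the DMSO libraries, whose range enclosed all VUF11207 values. Its log2 fold change was 0.53 (95% interval -1.58 to 2.63), and it was 0.0167 without the unnumbered DMSO library and 1.87 without DMSO replicate 3. Col6a3 alone made up 61.9%, 39.7% and 77.2% of the summed counts of the 14 chains in VUF11207 replicates 1, 2 and 3, against 12.4%, 54.5% and 77.6% in the unnumbered DMSO library and DMSO replicates 2 and 3. A summed collagen count in these samples is therefore mostly a Col6a3 count in 4 of the 6 libraries. Without Col6a3 the other 13 chains summed to 332, 529 and 246 CPM with VUF11207 and to 416, 213 and 255 CPM with DMSO. No exon of another GENCODE gene overlaps those of Col6a1, Col6a2 or Col6a3.

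The promoter sequences of the type VI genes are shown because the chains of 1 protein differed in how they varied. Col6a1 and Col6a2 are neighbours on chromosome 10, with 85.2 kb between them and no protein-coding gene in the gap, while Col6a3 lies alone on chromosome 1 from 90765923 to 90843971 on the minus strand. The sequences are RefSeq's for GRCm38.p6 (mm10), read 5′ to 3′ on the minus strand, and end at the base before the GENCODE gene start. They cover chr10:76726169-76726294 for Col6a1, chr10:76623631-76623880 for Col6a2 and chr1:90843972-90844221 for Col6a3, and capitals mark the motif GGGCGG or its reverse complement. The Col6a1 stretch has 126 bases, against 250 for Col6a2 and for Col6a3, so fewer bases were searched in it. A second Col6a2 stretch of 24 bases, not printed, is the end of the one shown.
Col6a1: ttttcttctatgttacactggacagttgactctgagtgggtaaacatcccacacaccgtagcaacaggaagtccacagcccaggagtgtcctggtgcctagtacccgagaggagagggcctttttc
Col6a2: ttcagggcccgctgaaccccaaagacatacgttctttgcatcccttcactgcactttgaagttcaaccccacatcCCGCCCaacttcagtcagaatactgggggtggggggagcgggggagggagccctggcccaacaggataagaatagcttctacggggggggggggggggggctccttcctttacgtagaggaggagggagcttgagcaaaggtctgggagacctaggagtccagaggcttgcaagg
Col6a3: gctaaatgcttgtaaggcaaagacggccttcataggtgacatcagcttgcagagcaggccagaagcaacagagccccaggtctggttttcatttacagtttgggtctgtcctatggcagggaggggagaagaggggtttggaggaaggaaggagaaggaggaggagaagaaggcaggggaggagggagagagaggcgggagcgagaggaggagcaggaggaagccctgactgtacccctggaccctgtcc
GGGCGG, the core of the GC box, was found once in the Col6a2 stretch and in neither of the others. CCAAT (the CCAAT box), TATAAA (the TATA box) and TGTTCT (a half-site of steroid receptors) were in none of the 3. All 4 motifs were searched on both strands, and with a single match in these stretches no matches overlap. In the 250 bases before a start, GGGCGG occurs in 32.7%, CCAAT in 33.8%, TATAAA in 12.4% and TGTTCT in 16.1% of the 32851 RefSeq windows. Such a window was available for 20 of the 32 genes (21 windows), and GGGCGG occurred in 15, CCAAT in 3, TATAAA in 2 and TGTTCT in 2 of them. These matches describe letters and say nothing of binding.

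The remaining chains associate with fibrils, border basement membranes or form networks. Col12a1, whose product binds the surface of type I fibrils, was at 18.3, 19.8 and 7.10 CPM with VUF11207 and at 14.6, 9.23 and 13.02 CPM with DMSO. Col14a1, a fibril-associated chain of the same family, was at 4.26, 8.05 and 4.73 CPM with VUF11207 and at 7.77, 1.83 and 6.79 CPM with DMSO. VUF11207 replicate 2 was the highest library for both genes, and the lowest was VUF11207 replicate 3 for Col12a1 and DMSO replicate 2 for Col14a1. Col15a1, of the zone next to basement membranes, averaged 16.0 ± 4.39 CPM with VUF11207 and 16.6 ± 5.78 CPM with DMSO, and Col16a1, another fibril-associated chain, 13.2 ± 8.59 and 12.0 ± 8.43 CPM in the same order (SD, n = 3 each). For Col15a1 the 95% interval of the log2 fold change ran from -0.88 to 0.77, so a doubling or a halving lay outside it. Col8a1, a network-forming chain, had 7, 16 and 7 counts with VUF11207 and 23, 1 and 5 counts with DMSO. Of the 13 tested chains 11 had a positive log2 fold change, with a median of 0.29. Without VUF11207 replicate 2 this was 5 of 13, with a median of -0.04, and without the unnumbered DMSO library the median was 0.62.

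**Figure D3:**
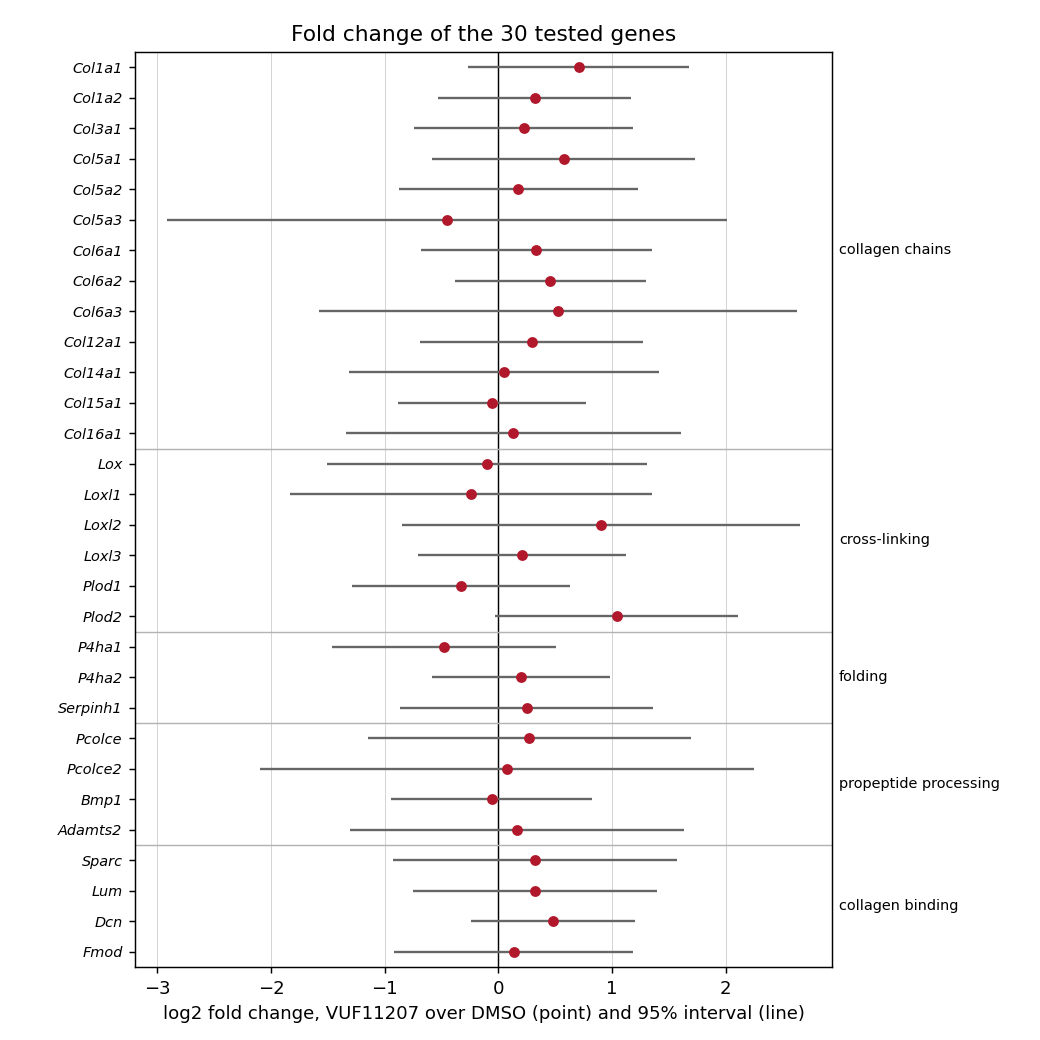
Log2 fold change of VUF11207 over DMSO for the 30 tested genes (points) with 95% intervals (lines), by role; the vertical line marks no difference. Every interval crosses 0, and that of Plod2, from -0.03 to 2.11, comes closest to leaving it.

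Among the cross-linking enzymes, Plod2 had the largest fold change of the 30 genes and the smallest p. Plod2 encodes lysyl hydroxylase 2, which hydroxylates lysines in the telopeptides and so sets the stable type of cross-link found in fibrotic tissue. It was at 14.7, 18.4 and 34.0 CPM in VUF11207 replicates 1, 2 and 3, against 11.03, 5.99 and 15.5 CPM in the unnumbered DMSO library and DMSO replicates 2 and 3. VUF11207 replicates 2 and 3 lay above all DMSO libraries and VUF11207 replicate 1 lay just under DMSO replicate 3. The log2 fold change was 1.04 ± 0.45 (SE, 95% interval -0.03 to 2.11), with an edgeR unadjusted p of 0.0554 and an adjusted p of 0.9999. Plod2 was highest in VUF11207 replicate 3, where Col1a1 and Col5a1 were second lowest, and its log2 fold change was 0.61 without that library. Gm38391, a gene model of GENCODE class TEC, on the opposite strand shares 6.42% of its exon bases, and the strand setting of the counting is not given in the sources used here. Plod2 lies on chromosome 9 from 92542223 to 92608428.

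Plod1, the lysyl hydroxylase of the helical part of the chain, differed from Plod2 in its order of libraries. It was at 22.1, 16.8 and 10.9 CPM with VUF11207 and at 13.8, 32.1 and 16.7 CPM with DMSO. Its highest library, DMSO replicate 2, was the lowest of Plod2, and its lowest, VUF11207 replicate 3, was the highest of Plod2. The log2 fold change of Plod1 was -0.33 (95% interval -1.28 to 0.63), and it was 0.13 without DMSO replicate 2 and 0.0818 with scaling by library totals. The test of the difference between the fold changes of these 2 genes was not made.

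The lysyl oxidases, which oxidise lysines to start the cross-link, had no common direction. Lox was at 3.92, 9.53 and 6.53 CPM with VUF11207 and at 13.1, 3.24 and 4.98 CPM with DMSO. Loxl1, best known for elastic fibres, was at 4.97, 5.80 and 2.91 CPM with VUF11207 and at 11.03, 2.75 and 2.36 CPM with DMSO. In both genes the unnumbered DMSO library was the highest of all 6, and without it the log2 fold change turned positive (0.69 for Lox and 0.84 for Loxl1, against -0.10 and -0.24 with all libraries). Lox was also positive, at 0.22, without VUF11207 replicate 1, and Loxl1, at 0.0051, without VUF11207 replicate 3. Loxl2, a lysyl oxidase that also acts on type IV collagen, was at 2.23, 5.20 and 0.845 CPM with VUF11207 and at 1.92, 0.845 and 1.62 CPM with DMSO. Its log2 fold change of 0.90 (95% interval -0.85 to 2.66) came from VUF11207 replicate 2 and was 0.0681 without it. Loxl3, a further family member, averaged 4.89 ± 1.69 CPM with VUF11207 and 4.24 ± 0.738 CPM with DMSO (SD, n = 3 each). Of its exon bases 11.6% are shared with Htra2 on the opposite strand, so its count is uncertain.

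Genes of chain hydroxylation and folding peaked in the same libraries as most chains. Serpinh1, the collagen chaperone HSP47, was at 59.3, 101 and 40.7 CPM with VUF11207 and at 91.4, 36.6 and 41.5 CPM with DMSO. VUF11207 replicate 2 and the unnumbered DMSO library were the 2 highest, and the log2 fold change was 0.25 (95% interval -0.86 to 1.36). P4ha1, the catalytic subunit of the most widespread prolyl 4-hydroxylase, had the most negative log2 fold change of the 30, at -0.48 (95% interval -1.46 to 0.50). It was at 10.9, 21.8 and 12.6 CPM with VUF11207 and at 31.9, 18.2 and 13.1 CPM with DMSO. The unnumbered DMSO library set this difference, since the log2 fold change was -0.0465 without it. P4ha2, the second such subunit, averaged 10.3 ± 2.47 CPM with VUF11207 and 8.96 ± 2.86 CPM with DMSO (SD, n = 3 each). P4ha3, the third, had 3, 8 and 0 counts with VUF11207 and 14, 0 and 3 counts with DMSO, where 0 counts allow up to 0.101 CPM in VUF11207 replicate 3 and 0.211 CPM in DMSO replicate 2 (counting error only).

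Genes of propeptide removal showed the same 2 libraries in front. Bmp1, the procollagen C-proteinase, was at 6.12, 11.2 and 6.32 CPM with VUF11207 and at 11.2, 6.41 and 6.98 CPM with DMSO, and its spread of 1.83-fold was the narrowest of the 30 tested genes. Pcolce, which encodes the enhancer of that proteinase, was at 11.8, 36.8 and 13.1 CPM with VUF11207 and at 29.5, 9.58 and 12.0 CPM with DMSO. In both genes 1 library of each group stood above the other 4. Adamts2, the procollagen N-proteinase, averaged 3.68 ± 1.87 CPM with VUF11207 and 3.29 ± 1.83 CPM with DMSO, and Pcolce2, the second enhancer, 0.359 ± 0.172 and 0.330 ± 0.281 CPM in the same order (SD, n = 3 each). With all libraries 3 of 4 genes had a positive log2 fold change, and this was 0 of 4 without VUF11207 replicate 2 and 1 of 4 without DMSO replicate 2 or without DMSO replicate 3.

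The collagen-binding proteins had a positive log2 fold change in 4 of 4 genes, with a median of 0.32, and in 2 of 4, with a median of 0.07, without VUF11207 replicate 2. Dcn, which encodes decorin, a proteoglycan that binds fibrils and regulates their growth, was at 139, 184 and 203 CPM with VUF11207 and at 148, 82.6 and 147 CPM with DMSO. Sparc, a secreted collagen-binding protein, was at 186, 374 and 118 CPM with VUF11207 and at 285, 144 and 114 CPM with DMSO. In Sparc the VUF11207 and DMSO libraries alternated, while in Dcn VUF11207 replicates 2 and 3 lay above all DMSO libraries and VUF11207 replicate 1 did not. The log2 fold change of Dcn was 0.48 (95% interval -0.24 to 1.20). Lum and Fmod encode lumican and fibromodulin, proteoglycans of the same leucine-rich family. Lum averaged 5.75 ± 0.579 CPM with VUF11207 and 4.57 ± 2.61 CPM with DMSO, and Fmod 17.5 ± 9.85 and 15.9 ± 4.08 CPM in the same order (SD, n = 3 each). Lum lies next to Dcn on chromosome 10, 47.0 kb apart, but its highest library was DMSO replicate 3 and that of Dcn was VUF11207 replicate 3.

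**Figure D4:**
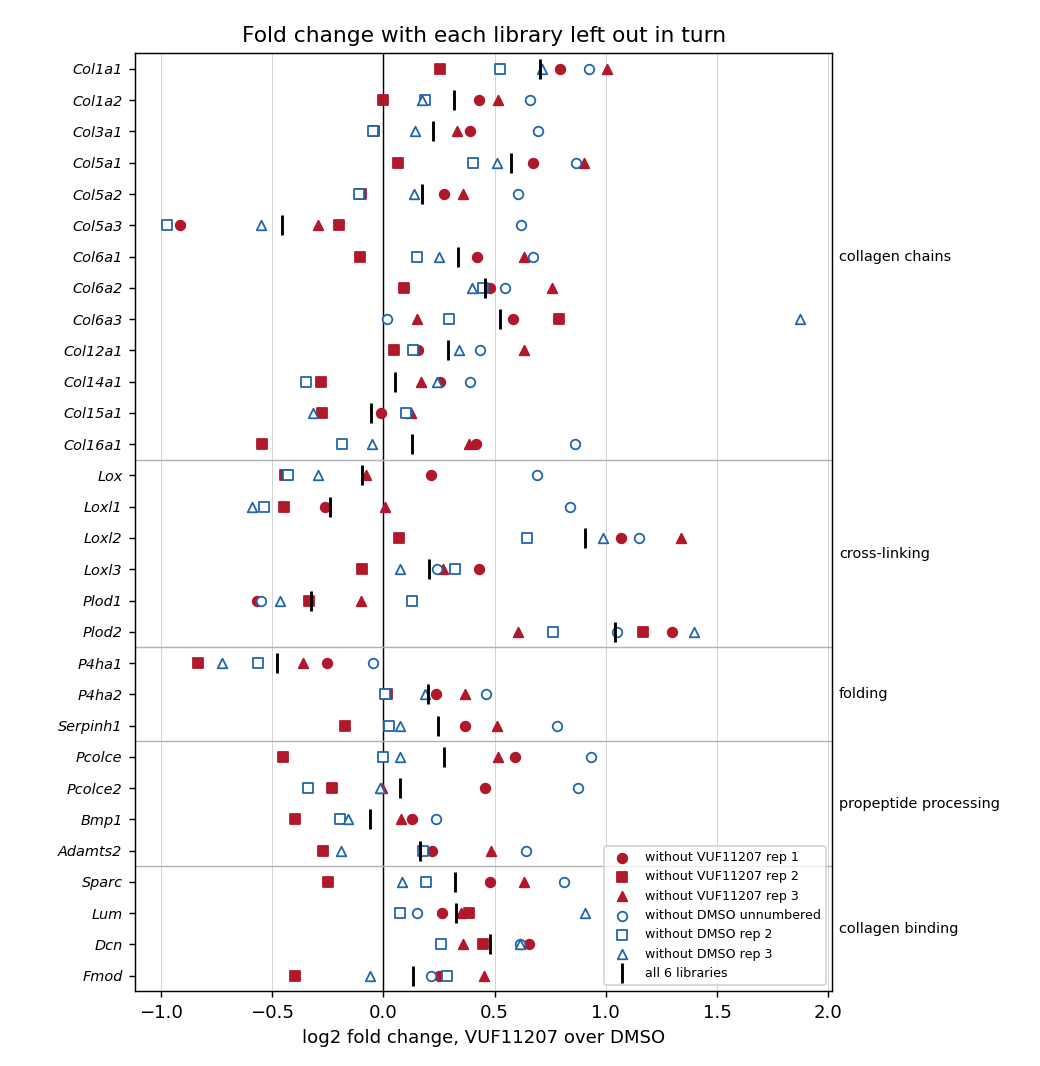
Log2 fold change of VUF11207 over DMSO for the 30 tested genes with all 6 libraries (black bars) and with each library left out in turn (filled red, a VUF11207 library left out; open blue, a DMSO library left out). For most rows the lowest value is the fit without VUF11207 replicate 2 or DMSO replicate 2 and the highest the fit without the unnumbered DMSO library, and 11 of the 30 genes keep their sign throughout.

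To compare amounts between genes, CPM was divided by the length of the gene's merged GENCODE exons. Per kilobase, Sparc was the most abundant of the 32 genes, at 59.7 CPM per kb with VUF11207 and 47.8 with DMSO. Col6a3 followed at 48.0 with VUF11207 and 33.4 with DMSO, then Dcn at 30.02 and 21.5 and Serpinh1 at 27.5 and 23.1 CPM per kb in the same order. The ranges over libraries of these 4 genes overlapped, and Col6a3 ran from 4.93 to 73.8 CPM per kb. The main fibrillar chains were lower and close to each other, with 8.49 and 7.27 for Col3a1, 7.89 and 4.84 for Col1a1 and 6.995 and 5.61 for Col1a2 (VUF11207 and DMSO, CPM per kb). Col6a1 was at 10.8 and 8.59. Over libraries the ranges overlapped, from 4.12 to 11.4 for Col3a1, 3.46 to 12.1 for Col1a1, 4.39 to 9.80 for Col1a2 and 5.89 to 16.6 for Col6a1. The order of these genes within each library was not compared. Among the enzymes, Plod2 stood at 4.15 and 2.01, P4ha1 at 3.67 and 5.12 and Loxl2 at 0.510 and 0.270 CPM per kb in the same order.

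To follow whole gene groups, each tested gene's log2 CPM was centred on its mean of the 6 libraries, and the centred values were averaged over the group. In bulk tissue, fewer cells of a type and less RNA per cell cannot be told apart. The collagen chains had levels of 0.18, 0.62 and -0.27 in VUF11207 replicates 1, 2 and 3, against 0.27, -0.75 and -0.06 in the unnumbered DMSO library and DMSO replicates 2 and 3. The enzymes and the chaperone together had levels of -0.13, 0.64 and -0.23 with VUF11207 and 0.52, -0.48 and -0.32 with DMSO. The difference between VUF11207 and DMSO was 0.35 for the chains, against SDs of 0.444 with VUF11207 and 0.521 with DMSO. For the enzymes it was 0.18, against SDs of 0.476 and 0.538 in the same order.

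Fibroblast identity markers that are not among the 32 genes had, on average, high levels in the same libraries. All 10 markers were tested, 6 with a positive log2 fold change, and their summed level ran from 61.3 to 125 CPM with VUF11207 and from 56.7 to 117 CPM with DMSO. Pdgfra, a defining fibroblast receptor, was at 4.63, 7.35 and 3.58 CPM with VUF11207 and at 9.95, 4.23 and 4.75 CPM with DMSO. The marker level was -0.08, 0.69 and -0.36 with VUF11207 and 0.46, -0.54 and -0.18 with DMSO, with the same 2 libraries on top as for the enzymes. Singly, 6 of the 10 markers had VUF11207 replicate 2 and the unnumbered DMSO library as their 2 highest. The other 4, named after their values were seen, were Dpt, Fbln1, Scara5 and Cd248, and Scara5 was lowest in the unnumbered DMSO library, at 0.740 CPM. Once the marker level was subtracted, the enzymes spread less, with values of -0.06, -0.06 and 0.13 with VUF11207 and 0.06, 0.07 and -0.15 with DMSO and SDs of 0.110 and 0.121. The chains minus the markers were at 0.25, -0.07 and 0.09 with VUF11207 and -0.19, -0.20 and 0.12 with DMSO. These values overlapped between the groups and differed by 0.18 on average, about the size of their SDs (0.165 with VUF11207 and 0.182 with DMSO). Leaving out single libraries moved this difference between 0.10, without VUF11207 replicate 1, and 0.29, without DMSO replicate 3.

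The chains minus the enzymes, a measure of chain message per unit of processing message, gave 0.31, -0.02 and -0.04 with VUF11207 and -0.25, -0.27 and 0.26 with DMSO. The highest libraries were those richest in skeletal muscle, VUF11207 replicate 1 and DMSO replicate 3. The difference of 0.17 between the groups was smaller than the SDs of 0.197 with VUF11207 and 0.303 with DMSO. It was 0.10 with Col6a3 left out. It was 0.0568 without VUF11207 replicate 1, 0.0776 without DMSO replicate 2, 0.0888 without the unnumbered DMSO library and 0.35 without DMSO replicate 3.

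Smooth muscle, the other abundant stromal cell of the prostate, peaked in the same libraries. The level of its 10 markers was 0.32, 1.20 and -1.02 with VUF11207 and 0.83, -0.66 and -0.67 with DMSO, and their sum ran from 4642 to 21573 CPM with VUF11207 and from 5324 to 16914 CPM with DMSO. Acta2, the smooth muscle actin that myofibroblasts share, was at 1936, 4099 and 1083 CPM with VUF11207 and at 3069, 1139 and 993 CPM with DMSO. Tendon markers, of which Comp was not tested, were low in every library, with sums of 18.0 to 20.8 CPM with VUF11207 and 8.24 to 18.8 CPM with DMSO. The part of smooth muscle and fibroblast content in the collagen values was not tested.

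**Figure D5:**
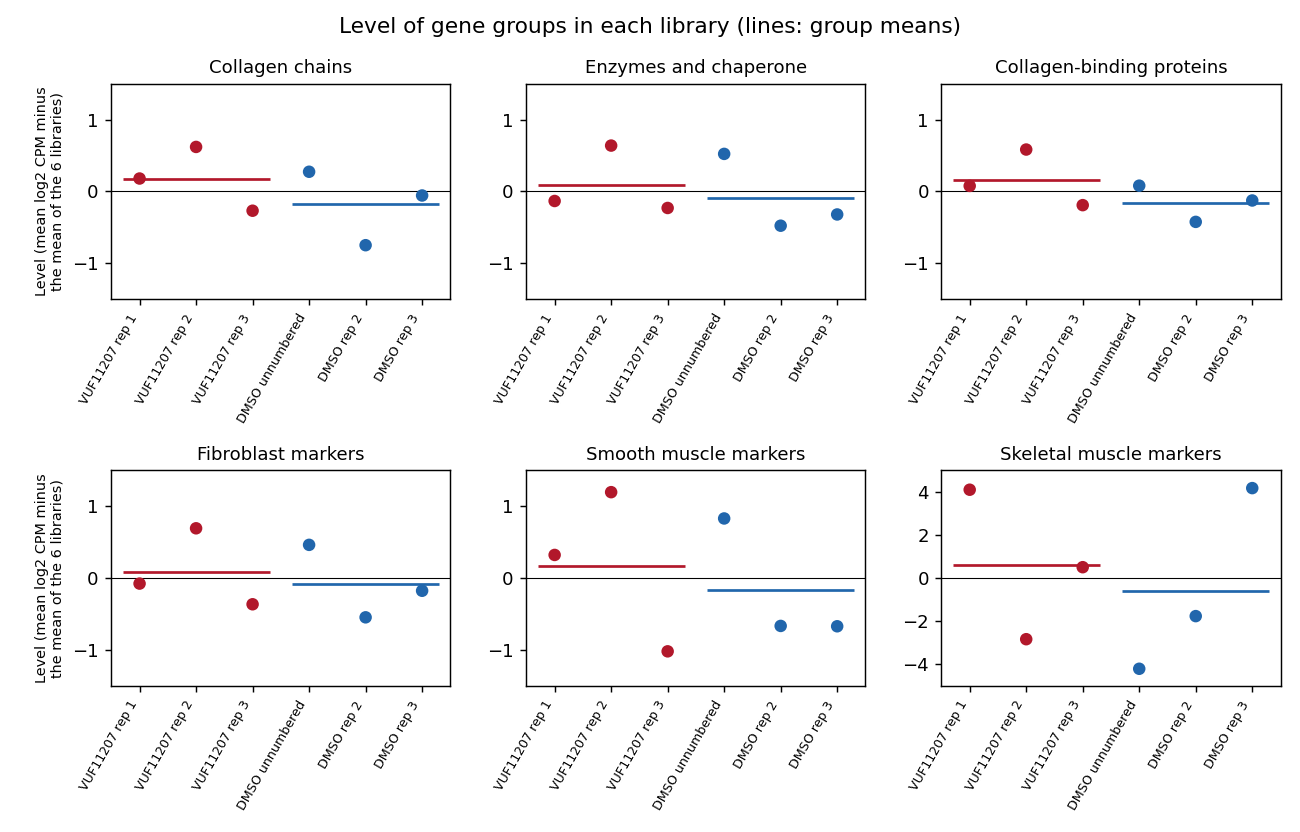
Level of each gene group (average of centred log2 CPM values) in each library, with horizontal lines at the group means; red points are VUF11207 and blue points DMSO, and the skeletal muscle panel has a wider axis. VUF11207 replicate 2 and the unnumbered DMSO library are the 2 highest for chains, enzymes, fibroblast markers and smooth muscle markers, and the 2 lowest for skeletal muscle markers.

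The rest of the collagen pathway gave no call either. Of 30 other collagen chains 18 were tested, 8 with a positive log2 fold change and a median of -0.16, and 0 passed the adjusted threshold in either direction. Col4a4, a basement membrane chain, was at 1.76, 4.56 and 1.66 CPM with VUF11207 and at 1.41, 0.705 and 1.58 CPM with DMSO. Its groups did not overlap, VUF11207 replicate 3 lying just above DMSO replicate 3, and its log2 fold change was 1.10 (95% interval -0.37 to 2.56). Col7a1, the anchoring fibril chain under epithelia, had a log2 fold change of -0.47 (95% interval -1.37 to 0.43). Col6a4, a further type VI chain, was at 1.18, 11.9 and 3.55 CPM with VUF11207 and at 48.8, 1.62 and 1.94 CPM with DMSO. Its single high library was the unnumbered DMSO library, the one in which Col6a3 was lowest.

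Of 29 other genes of collagen modification, assembly and turnover 25 were tested, 12 of them positive with a median log2 fold change of -0.03, and 0 passed in either direction. Loxl4, a lysyl oxidase, had a log2 fold change of 1.22 (95% interval -0.95 to 3.38), Mmp2, a gelatinase, one of -0.54 (-1.64 to 0.56) and Adamts14, a procollagen N-proteinase, one of -0.80 (-2.71 to 1.11). Of 12 myofibroblast activation genes 9 were tested, 3 of them positive with a median of -0.13, and 0 passed in either direction. Ccn2, a matricellular target of TGF-beta, was at 6.69, 19.4 and 11.6 CPM with VUF11207 and at 49.5, 18.7 and 9.11 CPM with DMSO. Timp1, an inhibitor of matrix metalloproteinases, was at 28.8, 3.05 and 2.98 CPM with VUF11207 and at 4.59, 211 and 1.07 CPM with DMSO. Its high values were those of VUF11207 replicate 1 and DMSO replicate 2, the libraries richest in seminal vesicle counts. Cthrc1, a secreted protein of activated fibroblasts, was at 1.35, 0.302 and 2.57 CPM with VUF11207 and at 0, 0.0705 and 1.07 CPM with DMSO.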

How the data were processed

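The deposited table holds raw read counts per gene symbol for 6 libraries, and 5 libraries also had files with the same counts. The submitters' processing notes name the tools HTSeq, HISAT2 and fastp and the build mm10. Not given in the sources used here are the annotation, the strand setting and the tool versions. Column names matched 5 samples. The sixth gave its group, DMSO, and a number, but it matched no sample.

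Counts were TMM-scaled and filtered with filterByExpr in edgeR 4.0.16 (R 4.3.3). VUF11207 was compared with DMSO over all genes by the quasi-likelihood test (robust, two-sided, Benjamini-Hochberg, threshold 0.05). This test was also run on simulated data, with an outcome that is not given here. SEs and 95% intervals came from the F statistic. Levels used log2 CPM with a prior count of 2. Alternatives were DESeq2 1.42.0, limma 3.58.1 voom with sample weights, other scalings, no filter, a replicate block and left-out libraries. Positions and exon lengths are from GENCODE M21 (mm10), promoter sequences from RefSeq.

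The genes and lists were chosen with earlier results of these data known. All 32 genes are named, with up to 3 of smallest p, or the first marker, of each other list. Exceptions are said to be so.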

Additional observations from a re-analysis of the deposited data

How the results depend on the processing

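None of the 30 tested collagen genes passed under any alternative tried. Over all genes edgeR called 0, DESeq2 called 4 and edgeR with library totals called 3. Voom with sample weights and the replicate block each put 5 of the 6 cross-linking enzymes above 0, against 3. The labels share replicate numbers, but only replicates 2 and 3 could be matched to samples in both groups. The column of the unnumbered DMSO library carries the same number as that of VUF11207 replicate 1, but its name matched no sample. Same-numbered libraries did not deviate together (correlations of -0.33 and 0.05, and -0.59 for the unnumbered DMSO library with VUF11207 replicate 1). The highest correlations were 0.68, of the unnumbered DMSO library with VUF11207 replicate 2, and 0.52, of DMSO replicate 3 with VUF11207 replicate 1. With 3 libraries per group that also differed in seminal vesicle and skeletal muscle content, these values cannot show whether the samples were paired. The replicate block used only the 4 libraries of replicates 2 and 3 and called 0 genes. Its medians were 0.68 for the tested collagen genes, 0.76 for the cross-linking enzymes and 0.80 for propeptide processing, against 0.0141 over all genes tested. It put 29 of the 30 tested collagen genes above 0.

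With each library left out in turn, the number of genes above 0 ran from 10 to 28 of all tested members, from 5 to 13 of the chains, from 2 to 5 of the cross-linking enzymes, from 1 to 2 of the folding genes, from 0 to 4 of propeptide processing and from 2 to 4 of the collagen-binding proteins. The lowest of each came without VUF11207 replicate 2, propeptide processing also being at 1 without DMSO replicate 2 or 3. The median of the cross-linking enzymes ran from -0.22 to 0.77. The sign did not turn under any alternative in 8 of 30 genes, but their sizes moved. With single libraries left out, Col1a1 ran from 0.26 to 1.004, Col5a1 from 0.0677 to 0.90, Col6a2 from 0.091 to 0.76, Col6a3 from 0.0167 to 1.87, Loxl2 from 0.0681 to 1.34, Plod2 from 0.61 to 1.40, P4ha2 from 0.0058 to 0.46 and Dcn from 0.26 to 0.65.

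Signs turned in 22 genes, and the cause was not tested. Log2 fold changes under voom with sample weights were 0.55 for Col5a3, 0.14 for Col15a1, 0.23 for Lox and 0.43 for Loxl1. With library totals they were 0.21 for Col15a1, 0.0818 for Plod1 and 0.0604 for Bmp1. Under the replicate block they were 0.73 for Col5a3, 0.16 for Col15a1, 0.97 for Lox, 0.70 for Loxl1, 0.12 for P4ha1 and 0.34 for Bmp1. Without the 2 libraries richest in seminal vesicle counts they were -0.0357 for Col5a2, -0.0206 for Col12a1, -0.17 for Col14a1, 0.13 for Col15a1 and -0.00077 for Lum. Without the 2 richest in skeletal muscle they were 0.0215 for Lox, 0.0338 for Bmp1 and -0.14 for Adamts2.

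With each library left out in turn, the ranges of the genes that turned were -0.0017 to 0.66 for Col1a2, -0.0486 to 0.70 for Col3a1, -0.11 to 0.61 for Col5a2, -0.97 to 0.62 for Col5a3, -0.11 to 0.67 for Col6a1, -0.35 to 0.39 for Col14a1, -0.32 to 0.13 for Col15a1 and -0.55 to 0.86 for Col16a1. They were -0.44 to 0.69 for Lox, -0.59 to 0.84 for Loxl1, -0.096 to 0.43 for Loxl3, -0.57 to 0.13 for Plod1, -0.17 to 0.78 for Serpinh1, -0.45 to 0.93 for Pcolce, -0.34 to 0.88 for Pcolce2, -0.40 to 0.24 for Bmp1, -0.27 to 0.64 for Adamts2, -0.25 to 0.81 for Sparc and -0.40 to 0.45 for Fmod. Low counts limit Col8a1, P4ha3, Pcolce2 and Col5a3, which had 1 or 0 counts in DMSO replicate 2, although that library had the highest total.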

Other observations

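Col6a3 was set beside a secretory gene of the prostate, Sbp (spermine-binding protein), which was chosen after its values were seen. Sbp was at 66225, 64894 and 143193 CPM in VUF11207 replicates 1, 2 and 3, against 3710, 50372 and 66858 CPM in the unnumbered DMSO library and DMSO replicates 2 and 3. Col6a3, in the same order, was at 540, 348 and 836 CPM with VUF11207 and at 58.9, 255 and 883 CPM with DMSO. Both genes were lowest in the unnumbered DMSO library, then in DMSO replicate 2 and VUF11207 replicate 2, and both had their 2 highest values in the replicates 3 of the groups. For Sbp, however, DMSO replicate 3 was nearly level with VUF11207 replicates 1 and 2, while for Col6a3 it lay well above them. Pbsn, another secretory gene, ran the other way in the unnumbered DMSO library, where it was highest at 17695 CPM. Epcam, a general epithelial marker, was at 276, 299.5 and 365 CPM with VUF11207 and at 254, 242 and 327 CPM with DMSO. Whether Col6a3 in these samples comes from the stroma or from the glands was not tested.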
